A study of Mus musculus with 6 samples.

Results

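Axon guidance ligands and receptors are the secreted and membrane-bound cues that steer growing neurites, together with the receptors that read them. Genes were taken by symbol from the semaphorin, plexin, neuropilin, ephrin, Eph, slit, robo, netrin, UNC5 and DCC families, and 58 of the 11339 genes in the table met this rule. Of the 70 symbols of these 12 families 57 were listed, 28 of 37 ligands and 29 of 33 receptors. The remaining gene, *Unc50*, matches by name only: it encodes a membrane trafficking protein and is not a guidance receptor. RNA of 3 *Mll1KO* and 3 WT retina samples at P14 was sequenced, each sample holding 2 retinas. *Mll1KO* mice carried floxed alleles of *Mll1* on both chromosomes and the *Chx10-Cre* transgene, which expresses Cre in retinal progenitor cells, and cells that do not descend from them, such as those of vessels and microglia, are not its target. WT mice carried neither, and both groups were on the C57Bl6/J strain, so that the deletion and the presence of Cre cannot be told apart in this comparison. The library totals recovered from the RPKM values (reads per kilobase of gene length, scaled to the reads of the library) came to 23836033, 19777205 and 19323512 reads for WT a, b and c. For *Mll1KO* a, b and c they came to 23348923, 19855963 and 17961097. By recovered reads, which rest on a searched gene length where the annotated one gave no whole reads, the 58 genes were covered by between 111 reads (*Efna2*) and 10020 reads (*Plxna2*) per library.

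Semaphorins are read by plexins, and most secreted class-III members also need a neuropilin as co-receptor. Ephrins are membrane-bound ligands of the Eph receptor tyrosine kinases, slits are secreted ligands of robo receptors, and netrins are read by DCC, which mediates attraction, and by UNC5 receptors, which mediate repulsion. In the retina these cues guide GC axons to the optic disc, set the map of GC axons in the brain, and confine the neurites of AC, BC, HC and GC to the plexiform layers.

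*Mll1* itself, listed under its newer symbol *Kmt2a* (ENSMUSG00000002028, chromosome 9 from 44803355 to 44881296, minus strand), was examined first. Its RPKM was 36.1, 36.9 and 34.6 in WT a, b and c, and 22.9, 20.4 and 22.3 in *Mll1KO* samples a, b and c. All *Mll1KO* samples lay below all WT samples, at 60.9% of the WT mean, with a log2 fold change (log2FC, *Mll1KO* minus WT) of -0.71 (SE 0.052, adjusted p = 2.74e-05). Fold changes, their standard errors (SE) and adjusted p are from limma on log2(RPKM + 0.1), which slightly understates the change of weakly expressed genes, and a gene is called at an adjusted p under 0.05. RPKM is counted over the whole gene, including exons outside the *LoxP* sites, and the samples hold cells that Cre does not reach. As in every gene below, fewer cells of a type and less RNA per cell cannot be told apart in these whole-retina samples.

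The samples carried the defining transcripts of retina. All 8 cone, all 8 BC, all 10 AC and all 10 MG markers were listed, whereas none of the 5 lens markers and none of the 5 markers of dividing cells was listed. Markers of tissue around the retina and of blood differed between libraries. The 3 listed markers of retinal pigment epithelium (RPE) summed to 133.6, 82.0 and 202 RPKM in WT a, b and c, and to 65.4, 129 and 65.9 RPKM in *Mll1KO* samples a, b and c, with *Ttr* as the most abundant gene and *Rpe65*, *Lrat*, *Best1*, *Tyr* and *Mlana* not listed. Hemoglobin genes (4 of 5 blood markers, *Alas2* not listed, *Hbb-bs* most abundant) summed to 101.1, 80.9 and 207 RPKM in WT and to 134.3, 178 and 212 RPKM in *Mll1KO*. The mean *Mll1KO* sum was 62.3% of the WT mean for RPE and 135% for hemoglobin genes, with overlap between genotypes in both lists, and neither list held a called gene with all samples. Single libraries decided this: all 4 hemoglobin genes were called as higher without WT sample c and 1 with the replicate block, and 2 RPE markers were called as lower without *Mll1KO* sample b and 1 without WT sample b.

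Guidance genes were lowered more often than raised in *Mll1KO* retinas. At an adjusted p under 0.05, 25 of the 58 genes were changed, against 23.4% of all genes (2650 of 11339). Of these 22 were lower, against 14.5% of all genes, and 3 were higher, against 8.85% of all genes. In 35 of the 58 genes the *Mll1KO* and WT values did not overlap, against 41.1% of all genes. The median log2 fold change of the 58 genes was -0.12, beside -0.03 for all genes. Their summed RPKM was 637 ± 1.15 (SD, n = 3) in WT, and *Mll1KO* retinas reached 578 ± 15.3 (SD, n = 3), or 90.8% of WT. Among all genes 37.8% of the changed genes were higher, but with TMM factors 52.1% were, and with median-of-ratios factors 53.3%; among the guidance genes the same scalings gave 4 higher of 23 changed genes each. The count for all genes was 1687 without WT sample b and 1759 without *Mll1KO* sample c, whereas the count of guidance genes was between 18 and 22 without any 1 sample. The higher calls held less well than the lower ones: 0 were left without *Mll1KO* sample b, *Mll1KO* sample c or WT sample b, 1 without WT sample a and 1 with the replicate letter as a block. The same call was made under all 13 alternatives for 17 of the 25 genes, and the other 8 are named with their families.

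Ligands and receptors were lowered in like numbers. Of the 28 ligands 11 were lower and 2 higher, with a median log2 fold change of -0.08, and of the 29 receptors 11 were lower and 1 higher, with a median of -0.15. With TMM or median-of-ratios factors 13 ligands were changed, 3 of them higher, and 10 receptors, 1 of them higher. The fold change was below 0 in 17 ligands (60.7%) and in 25 receptors (86.2%), beside 59.7% of all genes. Summed over the ligands, RPKM was 357, 359 and 359.95 in WT a, b and c, and 322, 342 and 321 in *Mll1KO* samples a, b and c, so that the groups did not overlap. Summed over the receptors it was 262, 258 and 256 in WT a, b and c, and 233, 232 and 223 in *Mll1KO* samples a, b and c, again without overlap. The ligands reached lower fold changes (to -0.93) than the receptors (to -0.51). The difference between ligands and receptors was not tested, and the medians moved with the scaling, the ligand median to -0.05 with TMM or median-of-ratios factors. Without *Mll1KO* sample b the ligand median was -0.13, and without *Mll1KO* sample a the receptor median was -0.19.

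**Figure D1:**
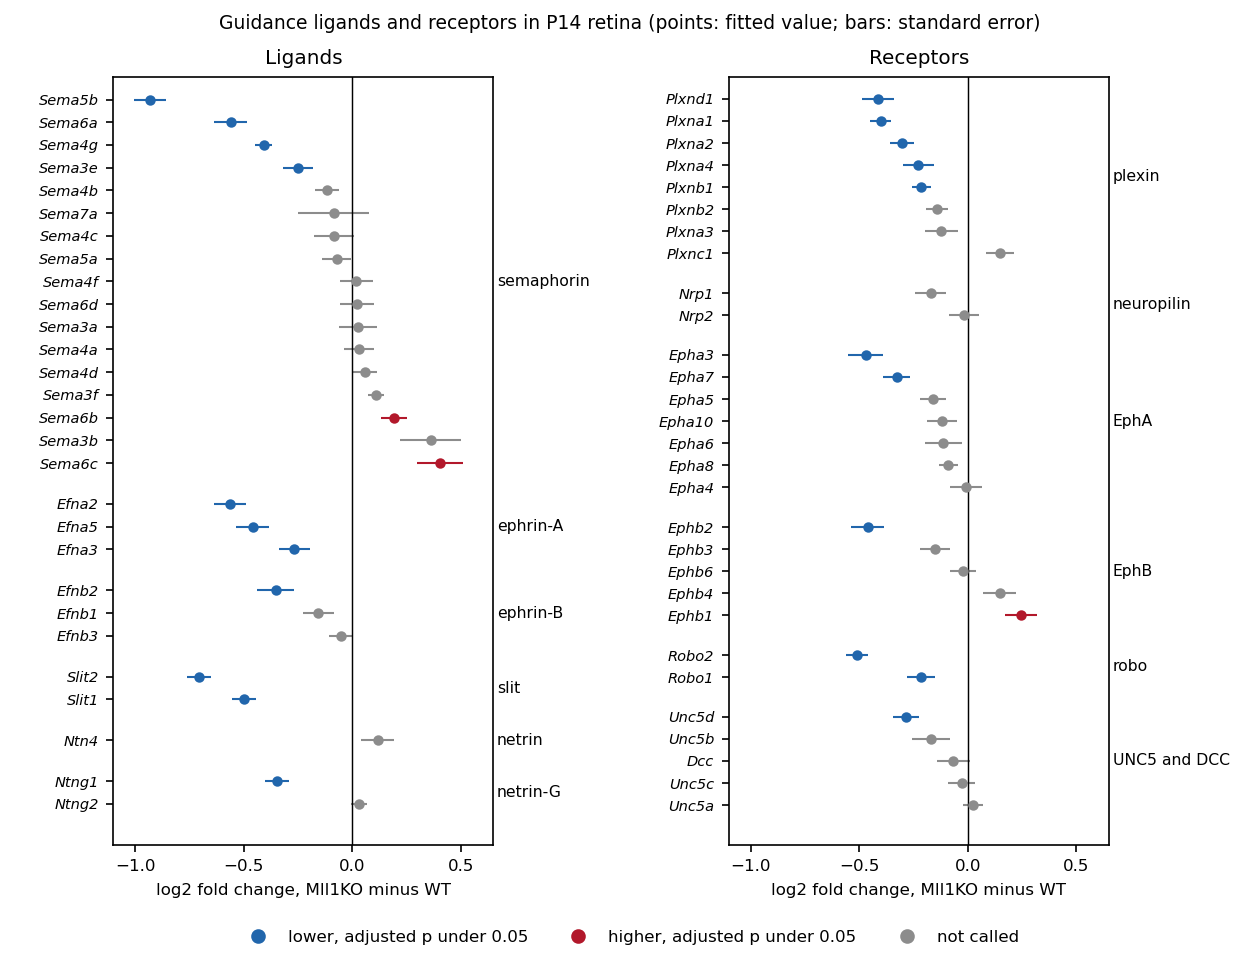
Log2 fold change (*Mll1KO* minus WT, horizontal axis) of each listed guidance gene, with ligands on the left and receptors on the right, grouped by family; points are the fitted values from 3 samples a group, bars their standard errors, and colour marks the call at an adjusted p under 0.05. The 22 lower genes are spread over both sides and reach -0.93 (*Sema5b*), and the 3 higher genes are *Sema6b*, *Sema6c* and *Ephb1*.

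Semaphorins were the largest family and moved in both directions, with *Sema3e* no longer called and *Sema3f* called as higher when TMM or median-of-ratios factors were used. Of 20 symbols 17 were listed (*Sema3c*, *Sema3d* and *Sema3g* were not), with 4 lower, 2 higher and 11 not called, and a median log2 fold change of 0.02. *Sema5b* had the lowest fold change of all 58 genes. This transmembrane semaphorin acts with *Sema5a* through *Plxna1* and *Plxna3* to keep neurites of the inner retina within the inner plexiform layer. Its RPKM was 8.52, 9.33 and 8.22 in WT a, b and c, and 4.501, 4.84 and 4.18 in *Mll1KO* samples a, b and c. Every *Mll1KO* value was thus below every WT value, at 51.8% of the WT mean (log2FC -0.93, SE 0.074, adjusted p = 3.98e-05). *Sema5a* stood at 8.29, 7.44 and 7.36 RPKM in WT and at 7.30, 7.71 and 6.94 RPKM in *Mll1KO*, which overlap, and was not called (log2FC -0.07, adjusted p = 0.482).

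*Sema6a* is a transmembrane ligand of *Plxna2* and *Plxna4* that shapes the layers of the plexiform layers. It had an RPKM of 15.2, 14.1 and 14.1 in WT a, b and c, and of 11.0, 9.47 and 8.95 in *Mll1KO* samples a, b and c. *Mll1KO* sample a was the highest of its group and still below all WT samples (67.8% of the WT mean, log2FC -0.56, SE 0.076, adjusted p = 0.000807). *Sema4g*, a class-IV transmembrane semaphorin, was the third most abundant guidance gene. It fell from 48.0, 47.0 and 47.2 RPKM in WT samples a, b and c to 34.7, 37.1 and 35.4 RPKM in *Mll1KO* samples a, b and c, without overlap (log2FC -0.41, SE 0.040, adjusted p = 0.000136). The fourth lower semaphorin was *Sema3e*, a secreted ligand that binds *Plxnd1* directly and patterns vessels (log2FC -0.25, SE 0.069, adjusted p = 0.0283). Its call was lost with TMM or median-of-ratios factors (0.0561 and 0.0601), with the replicate block (0.0569), and without WT samples a or b or *Mll1KO* samples a or c (0.0571 to 0.0903), within a range of 0.0117 to 0.0903 over the alternatives.

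The related class-VI genes *Sema6b* and *Sema6c* were higher. *Sema6c* was among the least expressed members, with an RPKM of 1.51, 1.448 and 1.69 in WT a, b and c, and of 1.78, 2.20 and 2.31 in *Mll1KO* samples a, b and c. The groups did not overlap, but *Mll1KO* sample a lay close to WT sample c (log2FC 0.40, SE 0.108, adjusted p = 0.0236). *Sema6b* had an RPKM of 11.0, 10.2 and 11.4 in WT, and of 12.8, 12.7 and 11.8 in *Mll1KO* (log2FC 0.19, SE 0.060, adjusted p = 0.0451). Both increases depended on single samples. That of *Sema6c* was not called without WT samples a or b or *Mll1KO* samples b or c (adjusted p of 0.0717 to 0.0873, in a range of 0.00614 to 0.0873 over the alternatives). That of *Sema6b* was not called with the replicate block (0.0779), nor without WT samples a or b or any 1 of the *Mll1KO* samples (0.0502 to 0.163, in a range of 0.0258 to 0.163).

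The most abundant guidance gene was *Sema3f*, a secreted semaphorin that signals through *Nrp2*. Its RPKM was 68.8, 68.6 and 68.8 in WT a, b and c, and 74.4, 75.6 and 72.4 in *Mll1KO* samples a, b and c. The groups did not overlap, yet the gene was just outside the threshold (log2FC 0.11, SE 0.037, adjusted p = 0.0586), and was called as higher with TMM factors (0.0250), median-of-ratios factors (0.0252) and limma-voom (0.0498), in a range of 0.0250 to 0.167. *Sema7a*, which is anchored in the membrane by a lipid and binds integrins and *Plxnc1*, was uneven among *Mll1KO* samples. It stood at 23.4, 23.6 and 23.6 RPKM in WT a, b and c, and at 17.5, 31.0 and 20.2 RPKM in *Mll1KO* samples a, b and c. With all samples it was not called (log2FC -0.08, adjusted p = 0.749), whereas without *Mll1KO* sample b its log2 fold change was -0.33 (adjusted p = 0.00945, in a range of 0.00945 to 0.965), and without *Mll1KO* sample a it was 0.09. *Sema3b* was not called either (log2FC 0.36, adjusted p = 0.0903), with 3.74, 3.12 and 4.54 RPKM in WT a, b and c, and 4.10, 5.51 and 5.06 RPKM in *Mll1KO* samples a, b and c. It was called as higher without *Mll1KO* sample a (0.0366) or WT sample c (0.0298), in a range of 0.0298 to 0.275. Its order among samples was that of the RPE sums given above within both genotypes, and that of the summed hemoglobin genes within WT only, and the part of RPE and blood in its level was not tested. The other 7 semaphorins (*Sema3a*, *Sema4a*, *Sema4b*, *Sema4c*, *Sema4d*, *Sema4f* and *Sema6d*) had fold changes between -0.12 and 0.06, overlapped between genotypes except for *Sema4b*, and were called under no alternative. The signs of *Sema3a*, *Sema4a*, *Sema4f* and *Sema6d* turned without single samples.

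Plexins are the receptors of semaphorins, transmembrane proteins whose inner part acts on small GTPases. From 9 symbols 8 were listed (*Plxnb3* was not), of which 5 were lower and 0 higher, with 1 call, *Plxna4*, lost under other scalings. The median log2 fold change was -0.22, and the summed RPKM of the family was 122 ± 0.906 (SD, n = 3) for WT and 103 ± 4.17 (SD, n = 3) for *Mll1KO*, or 85.1% of WT. *Plxnd1*, the receptor of *Sema3e*, had the lowest fold change of the family. Its RPKM was 6.51, 7.35 and 7.01 in WT a, b and c, and 5.604, 5.19 and 4.82 in *Mll1KO* samples a, b and c (log2FC -0.41, SE 0.075, adjusted p = 0.00378). The groups did not overlap. *Plxnd1* is also a gene of vessels, and of 9 listed endothelial markers 4 were lower and 1 higher. Their summed RPKM was 96.7, 95.3 and 93.6 in WT a, b and c, and 77.1, 69.2 and 71.6 in *Mll1KO* samples a, b and c, with *Kdr* as the most abundant gene and *Emcn* not listed. Much of this difference lay in *Kdr*: the other 8 summed to 57.2, 56.5 and 59.2 RPKM in WT, and to 52.5, 48.1 and 50.4 RPKM in *Mll1KO*, without overlap. The part of vessels in the level of *Plxnd1* was not tested.

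*Plxna1*, which reads class-III and class-V semaphorins, fell from 17.0, 16.6 and 16.5 RPKM in WT samples a, b and c to 12.9, 12.8 and 12.2 RPKM in *Mll1KO* samples a, b and c (log2FC -0.40, SE 0.047, adjusted p = 0.000357). Exons of a neighbouring transcript, Gm26811, cover 10.7% of its exon bases, so that some of its reads may belong there. *Plxna2*, the receptor with the most reads, fell from 26.7 ± 1.180 to 21.6 ± 1.34 RPKM (SD, n = 3 each; log2FC -0.30, SE 0.056, adjusted p = 0.00431). *Plxnb1*, a receptor of *Sema4d*, fell from 26.3 ± 0.837 to 22.6 ± 0.558 RPKM (SD, n = 3 each; log2FC -0.21, SE 0.044, adjusted p = 0.00693). None of these genes overlapped between genotypes. *Plxna4* was called with all samples (log2FC -0.23, SE 0.072, adjusted p = 0.0473), but not with TMM or median-of-ratios factors (0.0791 and 0.0817), with the replicate block (0.0757) nor without any 1 of the samples other than *Mll1KO* a (0.0769 to 0.156, in a range of 0.0143 to 0.156 over the alternatives).

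The most abundant receptor was *Plxnb2*, which reads class-IV semaphorins, with an RPKM of 29.2, 27.7 and 29.7 in WT a, b and c, and of 25.5, 27.6 and 25.2 in *Mll1KO* samples a, b and c. Its highest *Mll1KO* value, in sample b, lay just under its lowest WT value, and it was not called (log2FC -0.14, SE 0.050, adjusted p = 0.0652). Without *Mll1KO* sample b (0.0368) and with limma-voom (0.0385) it was called as lower, in a range of 0.0368 to 0.198 over the alternatives. *Plxna3* (log2 fold change -0.12) and *Plxnc1* (0.15) were not called. The neuropilins, co-receptors of secreted semaphorins, were both listed and not called. *Nrp1*, the more abundant of them, had an RPKM of 3.68, 3.30 and 3.64 in WT a, b and c, and of 3.23, 3.08 and 3.08 in *Mll1KO* samples a, b and c (log2FC -0.17, SE 0.071, adjusted p = 0.114), and its groups did not overlap. *Nrp2* had a log2 fold change of -0.01, which was 0.02 with TMM or median-of-ratios factors, 0.0032 without *Mll1KO* sample b and 0.01 without WT sample a.

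Both listed slits, *Robo1* and *Robo2* were lower in *Mll1KO*, although the call of *Robo1* was lost with TMM or median-of-ratios factors. *Slit3* and *Robo3* were not listed, and *Robo4*, which the symbol rule does not take and which is counted below among other membrane partners, was not called (log2FC -0.06, adjusted p = 0.617). Slits repel growing axons through robo receptors, and within the retina *Slit2* and *Robo2* act in the ordered growth of GC axons towards the optic disc. *Slit2* had an RPKM of 15.7, 17.5 and 17.0 in WT a, b and c, and of 9.92, 10.6 and 10.1 in *Mll1KO* samples a, b and c. The gap between the groups was far larger than the spread within them, and *Mll1KO* stood at 61.0% of the WT mean (log2FC -0.71, SE 0.056, adjusted p = 3.71e-05). *Slit1* had an RPKM of 8.87, 9.49 and 9.31 in WT, and of 6.42, 6.51 and 6.58 in *Mll1KO* (log2FC -0.50, SE 0.054, adjusted p = 0.000246). Together the slits summed to 26.0 ± 1.25 RPKM (SD, n = 3) for WT and to 16.7 ± 0.369 RPKM (SD, n = 3) for *Mll1KO*.

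Their receptor *Robo2* was even within genotypes, at 9.76, 9.77 and 9.70 RPKM in WT a, b and c, and at 6.94, 6.81 and 6.67 RPKM in *Mll1KO* samples a, b and c. It stood at 69.9% of the WT mean (log2FC -0.51, SE 0.051, adjusted p = 0.000141), and no *Mll1KO* value came near the WT values. *Robo1* was lower by less, from 6.22 ± 0.227 to 5.34 ± 0.301 RPKM (SD, n = 3 each; log2FC -0.22, SE 0.065, adjusted p = 0.0388). Its call was lost with TMM (0.0722) and median-of-ratios factors (0.0754), with the replicate block (0.0555) and without any 1 of the samples other than *Mll1KO* c (0.0620 to 0.106, in a range of 0.0139 to 0.106 over the alternatives).

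All 3 listed ephrin-A ligands were lower (*Efna1* and *Efna4* were not listed). Ephrin-A proteins are held on the outer membrane by a lipid anchor and, through EphA receptors, order GC axons along the nasal to temporal axis of the retina. Summed over the 3 genes, RPKM was 12.6, 12.9 and 13.8 in WT a, b and c, and 9.31, 9.58 and 9.84 in *Mll1KO* samples a, b and c, or 72.9% of WT. *Efna2* had an RPKM of 4.09, 4.37 and 4.201 in WT a, b and c, and of 2.83, 2.62 and 3.03 in *Mll1KO* samples a, b and c (log2FC -0.56, SE 0.074, adjusted p = 0.000702). *Efna5*, the most abundant of them, had an RPKM of 5.53, 5.64 and 6.37 in WT, and of 3.99, 4.47 and 4.198 in *Mll1KO* (log2FC -0.46, SE 0.076, adjusted p = 0.00235). In both genes the groups were clearly apart. *Efna3* changed less (log2FC -0.27, SE 0.073, adjusted p = 0.0261), shared 14.1% of its exon bases with Gm15998, and had as few as 114 reads in a library. It was not called with limma-voom (0.0635) nor without WT samples a or c or *Mll1KO* samples a or b (0.0560 to 0.0885, in a range of 0.0244 to 0.0885).

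Of the ephrin-B ligands, which span the membrane and can signal back into the cell that bears them, 1 of 3 was lower. *Efnb2* had an RPKM of 9.30, 10.2 and 9.61 in WT a, b and c, and of 8.57, 6.66 and 7.62 in *Mll1KO* samples a, b and c (log2FC -0.35, SE 0.086, adjusted p = 0.0165). The groups did not overlap, but the call was lost without WT sample b (0.0659, in a range of 0.00480 to 0.0659). *Efnb3*, the most abundant, stood at 11.4, 12.6 and 11.9 RPKM in WT and at 11.2, 11.4 and 12.1 RPKM in *Mll1KO*, with overlap (log2FC -0.05, SE 0.056, adjusted p = 0.543). *Efnb1* was not called (log2FC -0.16, adjusted p = 0.139), except without *Mll1KO* sample c, its highest *Mll1KO* value (log2FC -0.23, adjusted p = 0.0386, in a range of 0.0386 to 0.315).

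Of the EphA receptors 7 of 9 were listed (*Epha1* and *Epha2* were not), and 2 were lower. *Epha3* was weakly expressed, with an RPKM of 3.45, 3.41 and 3.16 in WT a, b and c, and of 2.39, 2.59 and 2.18 in *Mll1KO* samples a, b and c (log2FC -0.47, SE 0.082, adjusted p = 0.00309). *Epha7* fell from 5.12 ± 0.0961 to 4.07 ± 0.163 RPKM (SD, n = 3 each; log2FC -0.33, SE 0.063, adjusted p = 0.00513). Neither gene overlapped between genotypes. *Epha8*, the most abundant EphA receptor, stood at 17.9, 17.5 and 17.1 RPKM in WT a, b and c, and at 16.4, 16.7 and 16.2 RPKM in *Mll1KO* samples a, b and c. These values did not overlap either, but the difference was small and not called (log2FC -0.09, SE 0.043, adjusted p = 0.162). *Epha4*, *Epha5*, *Epha6* and *Epha10*, the last of which lacks kinase activity, had fold changes between -0.16 and -0.01 and were not called, apart from *Epha5* with limma-voom (0.0326, in a range of 0.0326 to 0.249). The sign of *Epha4* turned with TMM or median-of-ratios factors (0.02 with either) and without *Mll1KO* sample c or WT sample a.

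The EphB receptors, which take part in mapping along the dorsal to ventral axis, were all listed and moved apart. *Ephb2* was lower, with an RPKM of 7.48, 7.31 and 7.14 in WT a, b and c, and of 5.89, 4.92 and 5.09 in *Mll1KO* samples a, b and c (log2FC -0.46, SE 0.074, adjusted p = 0.00212). *Ephb1*, known for steering the GC axons that stay on the same side at the optic chiasm, was higher, with an RPKM of 6.86, 5.94 and 5.83 in WT a, b and c, and of 7.28, 7.60 and 7.22 in *Mll1KO* samples a, b and c (log2FC 0.25, SE 0.072, adjusted p = 0.0348). In both genes the groups did not overlap. The call of *Ephb1* was lost with the replicate block (0.0543) and without any 1 of the samples other than WT a (0.0582 to 0.119, in a range of 0.0113 to 0.119 over the alternatives), and no scaling ended either call. *Ephb6*, the most abundant EphB gene and without kinase activity, stood at 9.40, 9.30 and 10.4 RPKM in WT and at 9.75, 9.69 and 9.22 RPKM in *Mll1KO*, with overlap and a log2 fold change of -0.02 (adjusted p = 0.832). Its sign turned with TMM or median-of-ratios factors (0.01 with either), without *Mll1KO* sample c (0.0033) and without WT sample c (0.03). *Ephb3* (log2 fold change -0.15) and *Ephb4* (0.15) were not called.

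Of the netrins only *Ntn4* was listed (*Ntn1*, *Ntn3* and *Ntn5* were not). This protein of basement membranes had an RPKM of 4.37, 4.70 and 4.36 in WT a, b and c, and of 4.43, 4.99 and 5.21 in *Mll1KO* samples a, b and c, with overlap and no call (log2FC 0.12, SE 0.076, adjusted p = 0.290). The netrin-G genes encode lipid-anchored relatives that do not bind DCC but pair across synapses with the partners *Lrrc4c* and *Lrrc4*. *Ntng1* fell from 8.75 ± 0.378 to 6.86 ± 0.139 RPKM (SD, n = 3 each; log2FC -0.35, SE 0.056, adjusted p = 0.00223). *Ntng2* was the second most abundant guidance gene, at 51.7, 52.5 and 52.5 RPKM in WT a, b and c, and at 54.1, 54.3 and 51.7 RPKM in *Mll1KO* samples a, b and c. Its groups overlapped (log2FC 0.03, SE 0.038, adjusted p = 0.607), and part of its exon bases are shared with 6530402F18Rik.

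All 5 UNC5 and DCC receptors were listed and 1 was lower. *Unc5d* fell from 5.44 ± 0.0381 to 4.45 ± 0.128 RPKM (SD, n = 3 each; log2FC -0.28, SE 0.059, adjusted p = 0.00763), without overlap. *Unc5a*, the most abundant, stood at 16.9, 15.8 and 16.4 RPKM in WT a, b and c, and at 16.9, 16.5 and 16.5 RPKM in *Mll1KO* samples a, b and c. The groups overlapped and the gene was not called (log2FC 0.02, SE 0.045, adjusted p = 0.747), with a sign that turned without WT sample b (-0.0013). *Unc5b*, *Unc5c* and *Dcc* had fold changes between -0.17 and -0.03, overlapped between genotypes and were called under no alternative. The sign of *Unc5c* turned with TMM or median-of-ratios factors (0.0046 and 0.0070) and without WT sample b, and that of *Dcc* without WT sample a. *Unc50*, outside the families, was not called (log2FC 0.14, adjusted p = 0.282).

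**Figure D2:**
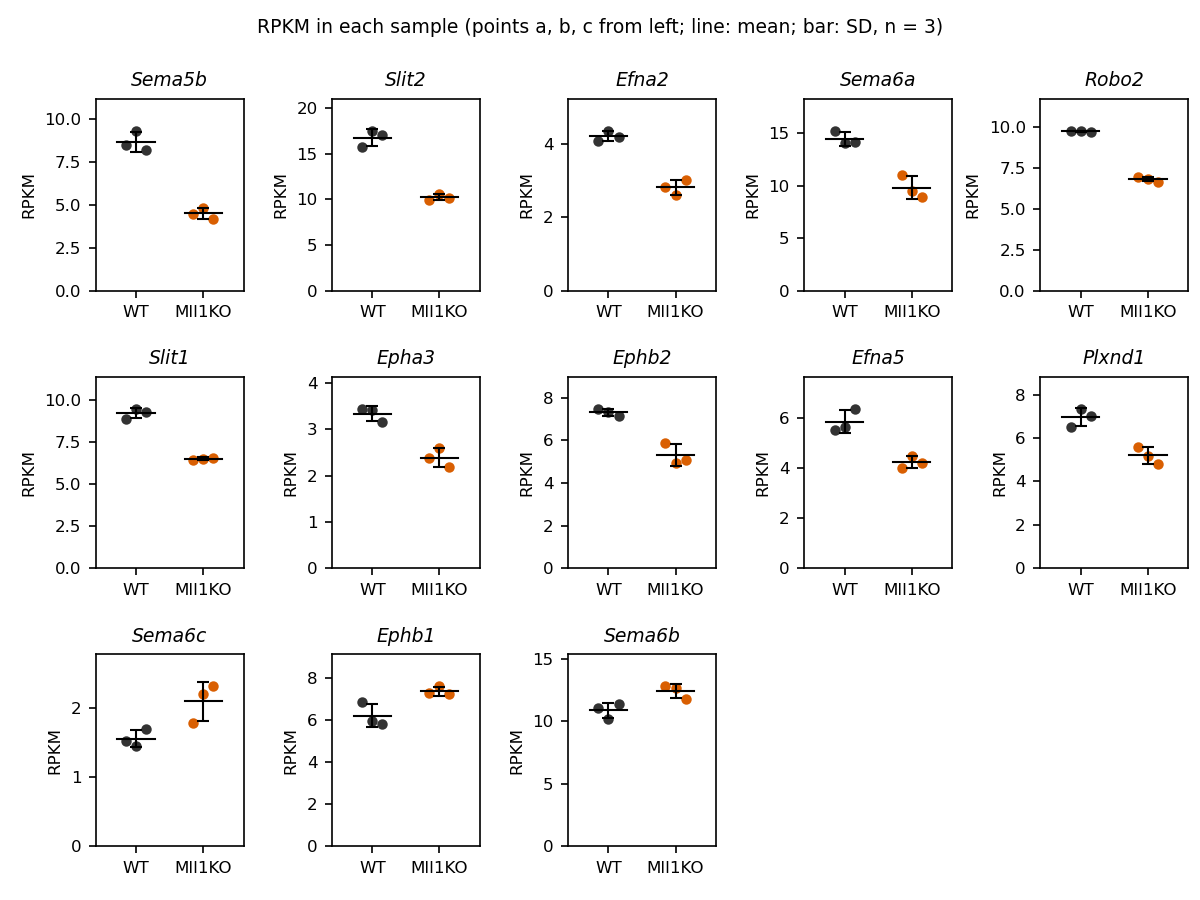
RPKM (vertical axes from 0) of the 10 called guidance genes with the lowest fold changes and the 3 called as higher, in WT and *Mll1KO* samples a, b and c; points are samples, lines the means and bars the SD (n = 3). In each of the 13 genes the WT and *Mll1KO* points do not overlap, and in *Sema6c* the lowest *Mll1KO* point lies close to the highest WT point.

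Paralogs were also set against each other within each library. These 4 pairs of a lower gene and a gene without a call were chosen after their values had been seen, so that the direction of the difference was fixed by the choice and the ratios are a description only. The ratio of *Sema5b* to *Sema5a* was 1.03, 1.25 and 1.12 in WT a, b and c, and 0.617, 0.628 and 0.601 in *Mll1KO* samples a, b and c. The ratio of *Ntng1* to *Ntng2* was 0.177, 0.161 and 0.164 in WT, and 0.125, 0.125 and 0.136 in *Mll1KO*. *Plxna1* was between 2.35 and 2.49 times as abundant as *Plxna3* in WT, and between 1.81 and 2.08 times in *Mll1KO*. *Ephb2* was between 1.69 and 1.73 times as abundant as *Ephb3* in WT, and between 1.32 and 1.43 times in *Mll1KO*. In all 4 pairs the genotypes did not overlap, with differences of the log2 ratio of -0.88, -0.38, -0.28 and -0.31. No test was made of them.

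By their median, the lower guidance genes had longer spans than the others. The 22 lower genes spanned a median of 171 kb of the genome, beside 39.7 kb for the 33 genes without a call and 17.3 kb for the 3 higher genes. Across the whole table the 1647 lower genes spanned a median of 41.2 kb, and all genes with annotation 27.2 kb. *Robo1* spans 738 kb on chromosome 16 (72308306 to 73046095, plus strand), and *Robo2* lies on the same chromosome (73891839 to 74411825, minus strand). *Sema5b* (35541145 to 35664732, plus strand) and *Epha3* (63543534 to 63864175, minus strand) are on chromosome 16 as well, as are *Ephb3* and *Epha6*, which were not called. *Slit2* lies on chromosome 5 (47983138 to 48307733, plus strand). Length and call did not always go together: *Dcc* spans 1097 kb and *Epha6* 952 kb without a call, and the lower gene *Efna2* spans 10.5 kb. The median of the mean RPKM was 6.45 in lower genes and 6.34 in genes without a call. Exon length differed as well, with medians of 8.916 kb in lower genes, 5.645 kb in genes without a call and 5.935 kb in higher genes, beside 4.903 kb in all genes. At like RPKM a longer gene holds more reads, and the part of read number in the calls was not tested. These are descriptions of the genes and were not tested.

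Promoters are shown because MLL1 binds unmethylated CG dinucleotides through its CXXC domain. RefSeq promoters (GRCm38.p6, 250 bases before to 50 after the start) were found for 49 of the 58 genes, some with several starts, and not for *Dcc*, *Efnb3*, *Plxna1*, *Plxna4*, *Sema3b*, *Sema3f*, *Sema6a*, *Slit1* and *Unc5d*. The letters CG, which read the same on both strands, were counted in each promoter, so that genes with several starts weigh more. The median was 27 in the 21 promoters of 17 lower guidance genes and 14 in the 5 promoters of the 3 called as higher. It was 18.5 in the 38 promoters of 29 genes without a call, which include *Sema4a* and *Sema4d* with several starts each. Those starts held 4 to 14 CG in *Sema4a* and 2 or 3 in *Sema4d*. The median was 21 in promoters of all listed genes, 21 in those of all lower genes, and 7 in all 32851 promoters, of which 94.6% held at least 1 CG. Those of the 3 genes with the lowest fold changes are given 5′ to 3′ with each CG in capitals, *Sema5b* from chr16:35541112-35541411 on the plus strand with 27, *Slit2* from chr5:47982905-47983204 on the plus strand with 30, and *Efna2* from chr10:80179232-80179531 on the plus strand with 31. Such matches describe the sequence, and binding was not measured here.
Sema5b: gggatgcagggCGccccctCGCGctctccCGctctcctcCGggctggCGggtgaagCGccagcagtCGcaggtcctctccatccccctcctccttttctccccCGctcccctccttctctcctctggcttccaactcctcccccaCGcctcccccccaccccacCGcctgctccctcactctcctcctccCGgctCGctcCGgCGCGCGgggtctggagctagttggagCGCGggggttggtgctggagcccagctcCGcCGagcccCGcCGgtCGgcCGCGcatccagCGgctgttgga
Slit2: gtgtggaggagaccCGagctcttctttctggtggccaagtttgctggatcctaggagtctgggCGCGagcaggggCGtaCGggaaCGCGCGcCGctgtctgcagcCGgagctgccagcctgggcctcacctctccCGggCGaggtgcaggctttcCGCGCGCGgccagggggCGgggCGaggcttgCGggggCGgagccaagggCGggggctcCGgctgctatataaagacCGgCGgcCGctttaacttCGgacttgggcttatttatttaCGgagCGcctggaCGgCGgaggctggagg
Efna2: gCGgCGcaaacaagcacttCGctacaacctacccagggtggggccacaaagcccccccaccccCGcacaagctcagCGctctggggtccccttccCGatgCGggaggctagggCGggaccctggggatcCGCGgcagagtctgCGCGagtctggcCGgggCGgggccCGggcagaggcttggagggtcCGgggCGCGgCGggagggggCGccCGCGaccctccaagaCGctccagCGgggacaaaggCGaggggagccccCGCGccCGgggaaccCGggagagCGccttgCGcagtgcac

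Genes that act with these ligands and receptors were followed in 5 lists, which hold 104 listed genes. Of these 33 were lower (31.7%, beside 14.5% of all genes) and 6 higher (5.77%, beside 8.85% of all genes), with a median log2 fold change of -0.09. Among other ligands and membrane partners (27 of 28 listed, *Draxin* not listed) 11 were lower and 2 higher (8 to 11 lower and 2 or 3 higher over the alternatives). The lowest was *Lrrc4*, which encodes a postsynaptic partner of netrin-G2. Its RPKM was 13.4, 12.8 and 12.5 in WT a, b and c, and 7.16, 6.91 and 7.31 in *Mll1KO* samples a, b and c (log2FC -0.85, SE 0.054, adjusted p = 1.30e-05). The highest was *Chl1*, an adhesion molecule of the L1 family, with 2.17, 2.19 and 2.02 RPKM in WT and 2.97, 2.92 and 3.01 RPKM in *Mll1KO* (log2FC 0.46, SE 0.070, adjusted p = 0.00150). In both genes the groups stood clearly apart.

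Among CRMP proteins and semaphorin effectors (20 of 24 listed; *Mical1*, *Fes*, *Rnd1* and *Rras2* were not) 4 were lower (20.0%) and 1 higher (4 or 5 lower and 0 or 1 higher over the alternatives). *Dpysl5*, which encodes CRMP5, had a log2FC of -0.50 (SE 0.043, adjusted p = 6.94e-05), from between 20.8 and 21.4 RPKM in WT to between 14.6 and 15.3 RPKM in *Mll1KO*. *Rras*, a small GTPase that plexins inactivate, had a log2 fold change of 0.35 (adjusted p = 0.0354), which was not called with limma-voom (0.0503), with the replicate block (0.0582) nor without WT samples b or c or *Mll1KO* samples b or c (0.0612 to 0.122), in a range of 0.0213 to 0.122. All 21 ephrin effectors were listed, 6 lower and 1 higher, but 4 lower with TMM or median-of-ratios factors and 3 or 4 without any 1 sample. *Grip1* and *Grip2*, which encode PDZ scaffolds that bind ephrin-B proteins, were the lowest and the highest, with log2 fold changes of -0.42 (SE 0.055, adjusted p = 0.000648) and 0.33 (SE 0.061, adjusted p = 0.00421).

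All 21 slit and netrin effectors were listed, 8 lower and 1 higher, with 6 lower under TMM or median-of-ratios factors and 5 to 8 without any 1 sample. *Srgap1*, a GTPase-activating protein that binds robo receptors, had an RPKM of 7.92, 7.42 and 7.45 in WT a, b and c, and of 5.85, 5.56 and 4.11 in *Mll1KO* samples a, b and c. *Mll1KO* sample c was the lowest of all, and the groups did not overlap (log2FC -0.56, SE 0.115, adjusted p = 0.00723). *Ablim1*, an actin-binding protein of the netrin pathway, was higher (log2FC 0.21, SE 0.043, adjusted p = 0.00710). Of the small GTPases and actin regulators (15 of 16 listed, *Was* not listed) 4 were lower and 1 higher, but only 2 lower with TMM or median-of-ratios factors and 1 lower without *Mll1KO* sample b or WT sample c. *Cfl1*, which encodes the actin-severing protein cofilin, was lower in all alternatives, with a log2FC of -0.26 (SE 0.045, adjusted p = 0.00343). *Limk2*, a kinase that inactivates cofilin, had a log2FC of 0.16 (SE 0.049, adjusted p = 0.0395). The call of *Limk2* was lost without WT samples a or b or *Mll1KO* samples b or c (0.0925 to 0.116), in a range of 0.0142 to 0.116.

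Markers of GC, HC, AC and BC moved in the same samples, and which cells hold the guidance RNA was not measured. Of 9 listed GC markers 8 were lower and 0 higher, with a summed RPKM of 571, 531 and 558 in WT a, b and c, and of 449.7, 399 and 372 in *Mll1KO* samples a, b and c (*Sncg* most abundant, *Pou4f3* not listed). Of 4 listed HC markers 3 were lower and 0 higher, with sums of 17.6, 18.3 and 17.9 RPKM in WT, and of 13.96, 13.5 and 15.1 RPKM in *Mll1KO* (*Calb1* most abundant, *Lhx1* and *Gja10* not listed). All *Mll1KO* sums of both lists were below all WT sums. Of 10 AC markers 5 were lower and 2 higher (4 higher with TMM or median-of-ratios factors, and 4 lower and 4 higher without *Mll1KO* sample b), and their sums were 466, 474 and 487 RPKM in WT, and 416, 392 and 407 RPKM in *Mll1KO* (*Calb2* most abundant). This difference of the sums lay in *Calb2*: the other 9 AC genes summed to 224, 214 and 224 RPKM in WT and to 217, 215 and 242 RPKM in *Mll1KO*, which overlap. Those 9 genes were not all unchanged, since they held genes called as lower and genes called as higher, which offset each other in the sum. Of 8 BC markers 4 were lower and 0 higher, and their sums were 333, 334 and 332 RPKM in WT, and 291, 283 and 288 RPKM in *Mll1KO* (*Grm6* most abundant). The BC sums did not overlap between genotypes either, with or without *Grm6*. The part of fewer GC, HC, AC or BC in the lower levels of guidance genes was not tested.

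Markers of cones and glia moved the other way. Of 8 cone markers 6 were higher and 1 lower, with sums of 340.4, 355 and 371 RPKM in WT a, b and c, and of 408, 427 and 446 RPKM in *Mll1KO* samples a, b and c (*Opn1mw* most abundant). Of 10 MG markers 6 were higher and 1 lower, with sums of 1443, 1419 and 1568 RPKM in WT, and of 1832, 1918 and 1883 RPKM in *Mll1KO* (*Glul* most abundant). All these sums were higher in every *Mll1KO* sample than in every WT sample. Since RPKM is a share of each library, the values of different genes are not independent of each other. For astrocytes (3 of 4 listed, *Pax2* not listed, *Gfap* most abundant) 2 were higher and 0 lower, with sums of 11.1, 11.8 and 11.2 RPKM in WT, and of 19.2, 18.2 and 17.8 RPKM in *Mll1KO*.

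Pericyte markers (4 of 5 listed, *Kcnj8* not listed, *Rgs5* most abundant) had 2 lower and 0 higher genes (1 lower without *Mll1KO* sample c or WT sample a, 3 without WT sample b) and sums of 55.8, 40.6 and 60.02 RPKM in WT a, b and c, and of 36.7, 35.4 and 38.2 RPKM in *Mll1KO* samples a, b and c. All *Mll1KO* sums were below all WT sums, but without *Rgs5* they overlapped, and WT samples a and c stood out through *Acta2*, which encodes the actin of smooth muscle (14.5 and 22.3 RPKM, beside 3.21 RPKM in WT sample b). No microglia marker was called with all samples, and *C1qb* was called as lower without *Mll1KO* sample c (4 of 8 listed; *C1qa*, *Aif1*, *P2ry12* and *Tmem119* were not; *C1qb* most abundant), and the sums of 17.1, 17.2 and 16.7 RPKM in WT and 15.8, 17.4 and 18.3 RPKM in *Mll1KO* overlapped. The part of cones, glia, vessels and pericytes in the levels of guidance genes was not tested. That of rods was not tested either, and their markers are not reported.

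**Figure D3:**
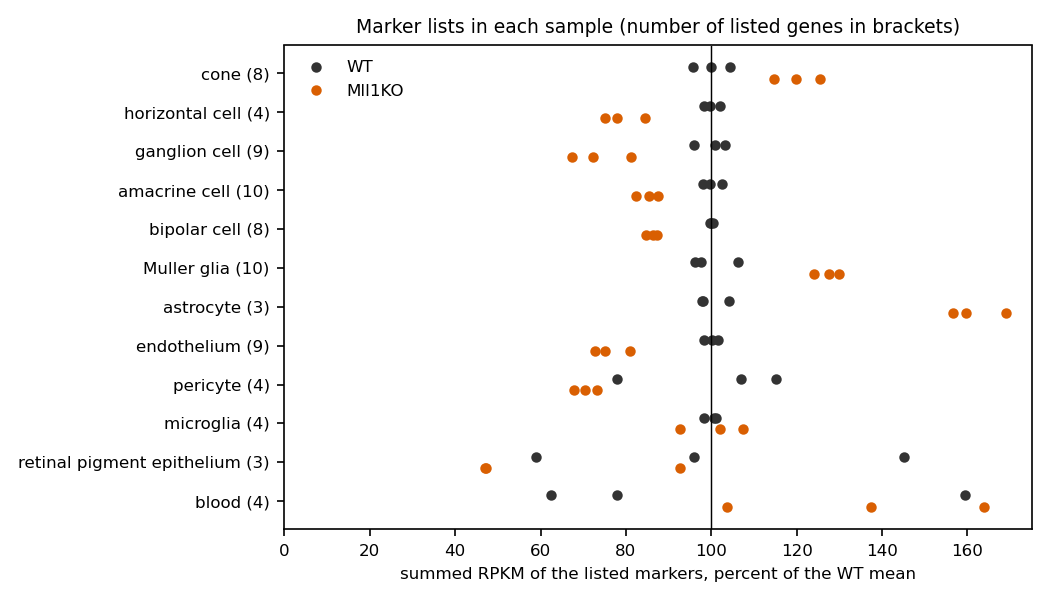
Summed RPKM of the listed markers of each cell type, as percent of the WT mean (horizontal axis), in each WT and *Mll1KO* sample; each point is a sample and brackets give the number of genes. GC, HC, AC (through *Calb2*), BC, endothelial and pericyte sums are lower in every *Mll1KO* sample, cone, MG and astrocyte sums higher, and RPE and blood sums are spread within both genotypes.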

How the data were processed

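Messenger RNA was drawn from total RNA of 3 *Mll1KO* and 3 WT samples, cleared of ribosomal RNA and sequenced. The authors aligned reads with STAR 2.0.4b to mm10 by the sample records (the paper writes GRCh38.76, a human build name), counted them per gene with featureCounts 1.45 (Subread) and dropped genes unless 5 or more samples passed a CPM of 5. RPKM, as deposited, came from those counts through edgeR in the authors' hands, of which the sample records and the paper state different versions. The deposited table also holds log2 fold changes, mean log2 CPM, p-values and FDR of the authors' own comparison, which were not used. Its 11404 lines hold 11339 genes, since 59 IDs stand in several lines, and 18 symbols turned into dates were restored from the IDs. Reads were recovered by finding library totals and gene lengths that make RPKM whole reads within 0.05 reads (100% of genes), and cover 98.4% or more of each library. The annotated length served for 53.4% of genes. For the others a length was searched for that gave whole reads and met the CPM filter, so that the share of 100% was partly fixed by the search. Coordinates and exons came from GENCODE vM21 (GRCm38, the same assembly as mm10), which 11329 IDs matched. Whether the counting used strand is not given in the sources used here.

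Genotypes were compared with limma 3.58.1 (R 4.3.3) on log2(RPKM + 0.1) with a variance trend and genotype as the sole term. Adjustment (Benjamini-Hochberg) ran over all 11339 genes, at a threshold of 0.05. Every adjusted p is from limma. RPKM kept the authors' scaling to library totals. P-values measure the spread between these samples, since no source used here says whether the 2 retinas of a sample came from 1 mouse. The alternatives were pseudocounts of 1 and 0.01, a mean RPKM of at least 1, TMM and median-of-ratios factors, limma-voom on recovered reads, a replicate block and leaving out each sample. The members and lists were chosen with earlier results of these data known. Values in every sample are given for the 10 called members with the lowest fold changes, the called members that were higher and the most abundant member of each family; of each pathway list the lowest and highest called gene is named, and of each marker list described the most abundant gene. Rod markers are not reported here. *Sema5a*, *Sema4g*, *Plxna1*, *Sema7a*, *Sema3b* and other members given a value beyond this rule were chosen after their values were seen. Tables were made with Python 3.11.15 (pandas 2.3.3, numpy 2.4.6) and plots with matplotlib 3.10.9.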

Additional observations from a re-analysis of the deposited data

How the results depend on the processing

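The counts of changed guidance genes, ligands and receptors were within 1.5 times of 25, 13 and 12 under all 13 alternatives, and no called guidance gene changed sign. Without 1 sample each, where fewer samples are tested, 1687 to 2549 genes were changed in all (1759 without *Mll1KO* sample c). The ligand median of -0.08 was -0.0523 with TMM factors, -0.0499 with median-of-ratios factors, and -0.133 to -0.0573 without 1 sample each; the receptor median of -0.15 was -0.192 to -0.1244 without 1 sample each. TMM and median-of-ratios factors moved the median of all genes by 0.032 and 0.0345 on the log2 scale. The sign turned in genes without a main call: *Ephb6* (0.0105 with TMM factors, 0.0129 with median-of-ratios factors, 0.0033 without *Mll1KO* sample c, -0.0516 to 0.0308 without 1 sample each), *Nrp2* (0.0168 with TMM factors, 0.0191 with median-of-ratios factors, -0.0534 to 0.0145 without 1 sample each), *Epha4* (0.0220 with TMM factors, 0.0244 with median-of-ratios factors, -0.0635 to 0.0481 without 1 sample each), *Unc5c* (0.0046 with TMM factors, 0.0070 with median-of-ratios factors, -0.0542 to 0.0044 without 1 sample each) and, without 1 sample each, *Unc5a* (-0.0013 to 0.0459), *Dcc* (-0.1084 to 0.0042), *Sema7a* (-0.3252 to 0.0868), *Sema3a* (-0.0141 to 0.0993), *Sema4a* (-0.0239 to 0.0829), *Sema4f* (-0.0439 to 0.0732) and *Sema6d* (-0.0283 to 0.0725). The cause was not tested. With the replicate letter as a replicate block, 2241 genes, 20 guidance genes, 11 ligands and 9 receptors were changed, and *Sema3e*, *Plxna4*, *Robo1*, *Sema6b*, *Ephb1* and *Rras* were not called. After the mean of its genotype was subtracted from each gene on the log2 scale, these deviations correlated at -0.188 to -0.01 between samples of the same letter. By this measure 0 of 6 samples correlated best with their own letter, so that the letters were not taken to pair samples. Of 884 values of the 58 guidance genes and 10 pathway genes under alternatives, 794 had the direction and call of the main fit, 55 lost the call, 10 gained a call and 25 turned the sign. *Efna2* and *Efna3*, with 111 and 114 reads in their poorest library, had the fewest reads among called members.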
